A study of Rattus norvegicus with 34 samples.

Results

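Drug and organic ion transporters carry medicines, toxins, bile acids, urate, carnitine and other charged molecules across cell membranes. The genes described here were those whose annotated symbol begins Slco, Slc22a, Slc47a, Abcb, Abcc or Abcg followed by a digit, with Abcg1 left out. By this rule 51 of the 14217 genes named on a rat Affymetrix array were members: 16 Slc22a genes, 13 Slco genes, 9 Abcc genes, 7 Abcb genes, 5 Abcg genes and 1 Slc47a gene. They were read by 66 probe sets, and 14 of them had more than 1. The study measured RNA in rat kidney, rat liver and a rat kidney cell line after the herbicide monuron.

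In the kidney and liver series, male Wistar-derived rats aged 7 to 9 weeks and weighing 190 to 240 g received monuron at 40 mg/kg on day 1 and 400 mg/kg on days 2 and 3, in corn oil at 5 ml/kg, and were set against male rats of the same stock given corn oil at 5 ml/kg alone. There were 4 monuron and 4 control arrays for each organ, and the labels call the arrays biological replicates. The treatment text places the kill 72 h after the last dose, while the sample labels give only 72 h. The labels do not state whether equal replicate numbers in kidney and liver are the same rat.

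The cells were NRK-52E, an established line from kidney of an Osborne-Mendel rat that is labelled as proximal tubule epithelium and is 1 line. Cultures labelled monuron were compared with cultures labelled DMSO at 6, 24 and 72 h, with 3 arrays in each of the 6 groups, described as separate studies. DMSO stood at 0.1% in the monuron cultures and in the DMSO cultures. The treatment text for the cells names another compound, chlorothalonil, so the identity and the concentration of the compound on the cells cannot be settled from the labels. All 34 arrays carried values on a log2 scale, and every level below is a log2 value of 1 probe set, which can be compared between samples but not between genes. Replicates correlated at 0.987 or more over all probe sets, and array medians lay between 3.66 and 4.18. A value above its own array's median is called detected here, as a convention.

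Excretion of organic ions runs in 2 steps: carriers of the SLC22 and SLCO families bring a compound into the cell from blood, and ATP-driven ABC pumps or proton exchangers pass it out into urine or bile. In the proximal tubule, Slc22a6 and Slc22a8 (organic anion transporters) and Slc22a2 (an organic cation transporter) serve the blood side, and Slc47a1 (a proton-coupled cation exchanger), Abcc2 and Abcc4 serve the urine side. In the hepatocyte, Slco1a1, Slco1a4 and Slco1b2 take up bile acids and drugs, and Abcb11 (the bile salt export pump), Abcb4 (a phosphatidylcholine floppase), Abcc2 and Abcg5 with Abcg8 (a sterol pump) export into bile.

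Control kidneys and control livers shared part of their transporters. Of the 51 members, 32 were detected on all control kidneys and 30 on all control livers, and 22 on all of both. A further 10 were detected on all control kidneys but not on all control livers (Abcc1, Slc22a2, Slc22a6, Slc22a12, Slc22a13, Slc22a24, Slc47a1, Slco1a3, Slco1a6 and Slco3a1), and 8 the other way round (Abcb4, Abcb11, Abcc8, Abcg5, Slc22a21, Slco1a4, Slco1b2 and Slco2b1). Of these Slc22a21 lay close to the array median in both organs (4.10 ± 0.25 in control kidney and 3.75 ± 0.028 in control liver, mean ± SD) and was not called between them. Between the organs, 21 of 42 tested members were higher in control kidney (50% of members, against 44.8% of all genes tested) and 19 were lower (45.2%, against 31.9% of all genes). The calls are from limma, a linear model with a moderated spread, at a Benjamini-Hochberg adjusted p under 0.05 over all genes tested. Of the tested members, Slc22a2, Slc22a6, Slc22a13, Slc22a24, Slc47a1 and Slco4a1 were detected on 0 liver arrays. Abcb11, Abcg5, Abcg8, Slco1a4 and Slco1b2 were detected on 0 kidney arrays. These members entered the joint fit only through the organ where they are high. The direction of their calls was thus fixed by entry, and the counts include them. The median difference was 0.68 over members and 0.16 over all 10114 genes. When every array was centred on its median that shift of all genes became -0.062, and the calls over all genes turned to 3673 higher and 4071 lower, against 4528 and 3231 on the deposited scale.

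Among uptake carriers, Slc22a6 read 13.48, 13.36, 13.49 and 13.58 on the control kidneys, against 2.40, 2.41, 2.40 and 2.37 on the control livers. Slc22a2 read 11.97, 12.25, 11.80 and 11.92 in control kidney and 2.81, 2.81, 2.54 and 2.79 in control liver. Slc22a12, the urate exchanger of the tubule's urine side, read 13.39, 13.14, 13.06 and 13.06 in control kidney and 3.52, 3.32, 3.33 and 4.04 in control liver. These kidney carriers stood near or below the median of the liver arrays, and no kidney value came near a liver value. The differences were 11.08 ± 0.086, 9.25 ± 0.19 and 9.61 ± 0.22 (log2, SE), and 9.79, 8.29 and 9.38 once values below an array's median were set to it. A dim probe set does not give a measured level, so the smaller figure is the safer one. Slc22a8 was high in both organs, at 13.17, 12.99, 13.36 and 13.26 in control kidney and 11.47, 11.38, 11.11 and 11.44 in control liver, a difference of 1.84 ± 0.095 (adjusted p = 1.19e-11). Slc22a7, an organic anion carrier, ran the other way with 5.71, 6.04, 4.97 and 4.75 in control kidney and 11.39, 11.25, 11.06 and 11.26 in control liver (difference -5.88, adjusted p = 4.04e-12).

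The export side divided in the same manner. Slc47a1 read 13.02, 12.98, 12.70 and 13.08 in control kidney and 3.01, 3.01, 2.94 and 2.95 in control liver, a difference of 9.96 ± 0.11, or 9.25 with dim values limited. Abcb11 read 2.27, 2.30, 2.29 and 2.30 in control kidney and 12.50, 12.69, 12.81 and 12.63 in control liver, -10.37 ± 0.12 or -8.74 when limited. The phospholipid pump Abcb4 differed by -6.25 (control kidney 4.01, 4.01, 3.91 and 3.86, control liver 9.98, 10.19, 10.58 and 10.04). All of these groups were separate by several log2 units. Abcg2, a pump for urate and sulphated conjugates, was 4.89 ± 0.27 higher in control kidney (11.37 ± 0.28 against 6.49 ± 0.64 in control liver, mean ± SD, n = 4 each), and Abcc4 was 4.35 ± 0.32 higher (10.41 ± 0.055 against 6.06 ± 0.70). Abcc2 was lower in control kidney (-3.33 ± 0.27), as was Abcb1a, which encodes a P-glycoprotein (-0.99 ± 0.26, adjusted p = 0.00252). Of the sterol pump pair, Abcg5 read 1.96, 1.99, 2.08 and 1.95 in control kidney and 7.999, 7.91, 7.78 and 8.49 in control liver, -4.13 after limiting. Abcg8 read 2.13, 2.06, 2.12 and 1.99 in control kidney and 3.48, 3.87, 3.95 and 4.93 in control liver. Its difference of -1.99 became -0.19 after limiting (adjusted p = 0.515), so no organ difference can be read from that probe set.

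Within the Slco family the organ pattern split a single gene cluster. Slco1c1, Slco1b2, Slco1a4, Slco1a1, Slco1a3, Slco1a6 and Slco1a5 follow each other on rat chromosome 4 between positions 176197736 and 176985589 (RefSeq, GRCr8). Slco1b2 read 3.38, 3.43, 3.31 and 3.48 in control kidney and 14.58, 14.38, 14.65 and 14.70 in control liver, and the adjacent Slco1a4 read 2.90, 2.80, 2.60 and 2.11 in control kidney and 13.30, 13.38, 13.38 and 13.42 in control liver. Both were far lower in control kidney, with fitted differences of -11.18 ± 0.11 and -10.77 ± 0.25, or -10.66 and -9.45 with dim values limited. Slco1a1, next in line, was detected in both organs and was lower in control kidney (-2.58 ± 0.23). The following Slco1a3 (known in rat as the kidney carrier OAT-K1) read 11.33, 11.79, 10.73 and 10.64 in control kidney and 3.70, 3.69, 3.71 and 3.48 in control liver, and Slco1a6 read 12.65, 12.83, 12.41 and 12.25 in control kidney and 3.11, 3.21, 3.20 and 4.85 in control liver. They were higher in control kidney by 7.48 ± 0.21 and 8.95 ± 0.30, or 7.43 and 8.55 with dim values limited. The end genes Slco1c1 and Slco1a5 were detected on 0 of 34 arrays. These paralogues resemble each other in sequence, and how far a probe set of one also reads transcripts of another was not tested.

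The start regions of the Slco1a genes that the organ and monuron results turn on are printed here with that of Abcc2, 250 bases before and 50 bases from the annotated start, from RefSeq (GRCr8). Capitals mark matches to the letters of 5 short motifs searched on both strands: GTTAAT (an HNF1 half-site), AGGTCA (a nuclear receptor half-site), TGTTCT (a steroid receptor half-site), TGACNNNGC (an antioxidant response element core) and GCGTG (a xenobiotic response element core).
Abcc2, chr1:252613625-252613924, plus strand: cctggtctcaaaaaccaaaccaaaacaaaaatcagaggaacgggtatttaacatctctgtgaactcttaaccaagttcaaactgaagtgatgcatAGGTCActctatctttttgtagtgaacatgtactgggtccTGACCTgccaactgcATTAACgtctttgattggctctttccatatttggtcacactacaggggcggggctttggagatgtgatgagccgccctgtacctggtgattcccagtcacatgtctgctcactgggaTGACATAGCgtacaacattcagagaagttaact
Slco1a1, chr4:176681943-176682242, minus strand: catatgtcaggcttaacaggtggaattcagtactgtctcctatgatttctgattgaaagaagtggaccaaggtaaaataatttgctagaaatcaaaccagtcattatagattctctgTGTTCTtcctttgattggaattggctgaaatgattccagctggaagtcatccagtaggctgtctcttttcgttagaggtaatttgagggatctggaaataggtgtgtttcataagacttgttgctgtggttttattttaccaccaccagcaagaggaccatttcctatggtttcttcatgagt
Slco1a3, chr4:176749674-176749973, minus strand: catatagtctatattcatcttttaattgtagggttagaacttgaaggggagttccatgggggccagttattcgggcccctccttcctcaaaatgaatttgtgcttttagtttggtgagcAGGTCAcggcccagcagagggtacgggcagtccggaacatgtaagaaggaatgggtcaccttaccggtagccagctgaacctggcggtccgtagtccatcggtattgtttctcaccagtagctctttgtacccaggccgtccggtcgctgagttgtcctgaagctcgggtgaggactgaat
Slco1a6, chr4:176838983-176839282, minus strand: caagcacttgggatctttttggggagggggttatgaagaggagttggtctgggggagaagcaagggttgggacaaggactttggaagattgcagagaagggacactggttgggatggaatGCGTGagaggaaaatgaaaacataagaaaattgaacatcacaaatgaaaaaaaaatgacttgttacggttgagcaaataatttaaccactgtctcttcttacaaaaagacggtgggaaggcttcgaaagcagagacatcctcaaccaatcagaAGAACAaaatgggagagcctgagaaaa
Slco1a4, chr4:176495797-176496096, minus strand: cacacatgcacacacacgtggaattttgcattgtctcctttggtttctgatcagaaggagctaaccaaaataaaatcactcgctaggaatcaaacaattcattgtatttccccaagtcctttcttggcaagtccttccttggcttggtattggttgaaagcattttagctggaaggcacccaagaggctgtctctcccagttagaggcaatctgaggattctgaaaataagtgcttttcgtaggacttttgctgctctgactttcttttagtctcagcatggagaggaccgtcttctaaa
In Abcc2 the matches were GTTAAT at -100, AGGTCA at -155 and -115, and TGACNNNGC at 18, counted as the first base relative to the start. Slco1a1 held TGTTCT at -133, Slco1a3 held AGGTCA at -131, Slco1a6 held TGTTCT at 24 and GCGTG at -130, and Slco1a4 held none of the 5. Such short words are common: they occur in 7.45% (GTTAAT), 16.2% (AGGTCA), 20.7% (TGTTCT), 12.1% (TGACNNNGC) and 29.7% (GCGTG) of 33469 rat windows of this length. Of the 43 members with a window, 5, 9, 5, 6 and 19 held them, in the same order. The Slco1a1 and Slco1a4 windows were 73% identical in a global alignment, while every other pair of these 5 windows was 51.2% to 59.5% identical. The Slco1a6 window lies inside the annotated span of its gene (176803025 to 176848311) and not at its outer end. A match is a description of the letters and not a binding site.

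**Figure D1:**
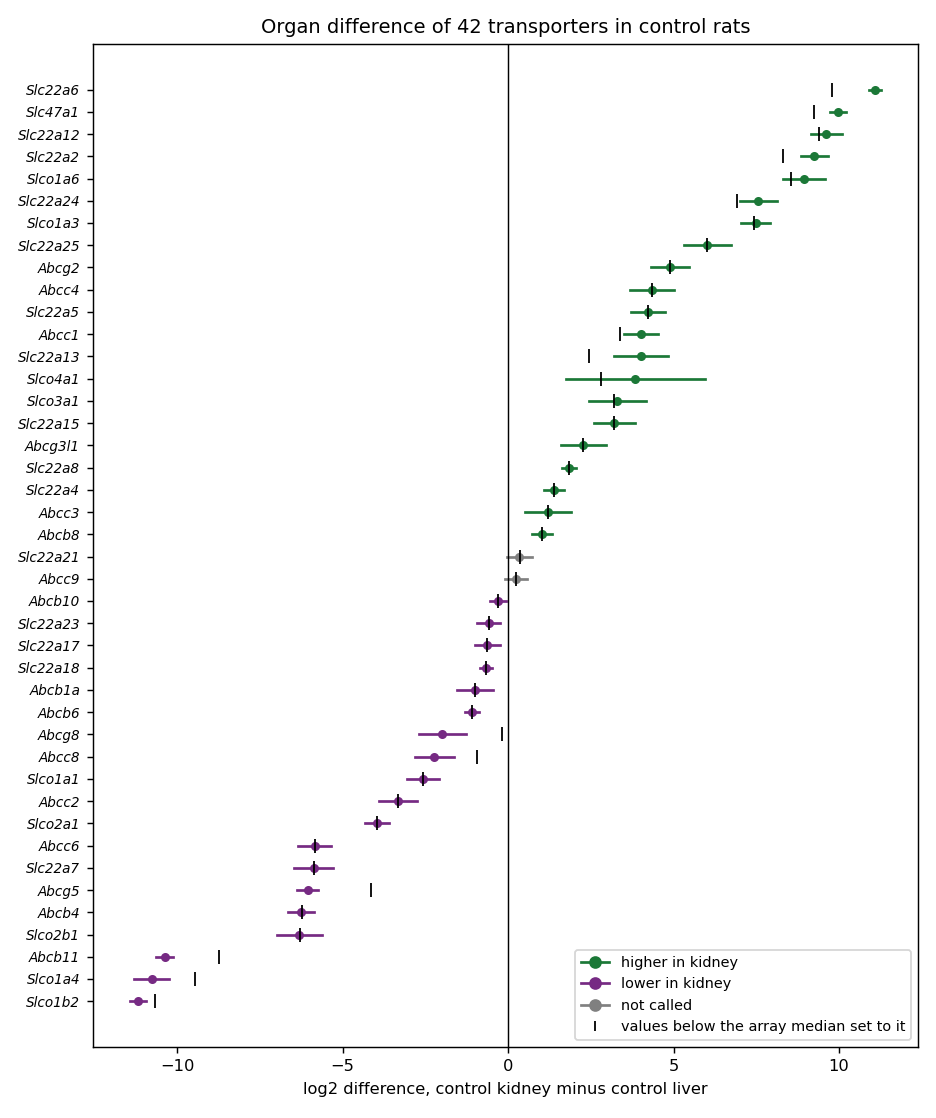
Control kidney minus control liver for the 42 members tested in the joint fit of 16 arrays (x axis, log2 difference; one row per gene). Dots are estimates and lines are 95% confidence intervals, green where higher in control kidney, purple where lower and grey where not called; black ticks are the difference after values below the array median were set to it. Slc22a6 lies furthest to the kidney side at 11.08 and Slco1b2 furthest to the liver side at -11.18, and only Abcc9 and Slc22a21 were not called.

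The other members filled the range between. Higher in control kidney were Slc22a24 (7.57) and Slc22a25 (6.03), Slc22a5, the carnitine carrier (4.23), Abcc1 (4.03), Slc22a13 (4.01, or 2.44 with dim values limited), Slco4a1 (3.85, or 2.81 limited), Slco3a1 (3.31), Slc22a15 (3.21), Abcg3l1 (2.27), Slc22a4 (1.39), Abcc3 (1.20) and Abcb8 (1.02). Lower were Slco2b1 (-6.30), Abcc6 (-5.85), the prostaglandin carrier Slco2a1 (-3.96), the sulfonylurea receptor Abcc8 (-2.22, or -0.93 limited), Abcb6 (-1.09), Slc22a18 (-0.65), Slc22a17 (-0.63), Slc22a23 (-0.59) and Abcb10 (-0.31). The Slco4a1 difference is uncertain, since its control kidneys ran between 2.29 and 8.42 and its second probe set was detected on 0 kidney arrays. Slc22a6 and Slc22a25 overlap on chromosome 1 (214951493 to 214960317 and 214767837 to 214956535, GRCr8). Slc22a8 (214925506 to 214945516) lies inside the Slc22a25 span. The values do not show how the probe sets of these genes divide any shared transcripts. The organ markers matched the labels: 9 of 10 proximal tubule markers were detected on all kidneys, with Slc5a1 detected on none, and 9 of 9 measured hepatocyte markers on all livers.

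In monuron kidneys the largest changes were a fall of the conjugate export pump Abcc2 and a rise of the uptake carrier Slco1a1, and the neighbouring kidney genes Slco1a3 and Slco1a6 rose as well. In all, 8 of 36 tested members rose (22.2% of members, against 3.87% of all 9542 genes tested) and 3 fell (8.33%, against 6.34%). By family, 3 of 7 Slco genes rose, 4 of 15 Slc22a genes rose and 1 fell, 1 of 6 Abcc genes rose and 2 fell, and none of 5 Abcb, 2 Abcg and 1 Slc47a genes was called. The median difference was 0.083 over the members and -0.078 over all genes. In whole tissue, a lower value can come from fewer cells of the type that holds the RNA or from less RNA per cell, and these cannot be told apart.

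Abcc2, the pump that passes glutathione and glucuronide conjugates into urine, read 5.09, 5.82, 5.84 and 6.54 on the monuron kidneys, against 8.84, 8.02, 8.83 and 8.12 on the control kidneys. Every monuron kidney was below every control kidney. The difference was -2.63 ± 0.30 (log2, SE; 6.17-fold lower; adjusted p = 0.00175 in limma), and it stayed between -2.86 and -2.38 when any one array was left out. Abcc4, which exports cyclic nucleotides and urate, read 9.89, 10.01, 9.81 and 10.11 in monuron kidneys and 10.34, 10.40, 10.44 and 10.46 in control kidneys. The groups were apart by less than Abcc2's but with a small spread, and the difference was -0.45 ± 0.077 (adjusted p = 0.00864). Slc22a15, an organic zwitterion and cation carrier, read 7.32, 7.40, 7.24 and 7.71 in monuron kidneys and 8.22, 8.31, 8.10 and 8.03 in control kidneys, a difference of -0.74 ± 0.12 (adjusted p = 0.00739). The falls of these 3 genes held with each array left out in turn.

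Slco1a1, a carrier of steroid conjugates and other organic anions on the tubule's urine side, read 10.80, 10.74, 11.19 and 11.60 on the monuron kidneys, against 8.80, 9.57, 8.36 and 8.32 on the control kidneys. All monuron kidneys lay above all control kidneys by at least 1 log2 unit. The rise was 2.32 ± 0.28 (4.99-fold higher; adjusted p = 0.00222), with 2.15 to 2.59 when any one array was left out. Slco1a3 read 12.01, 12.02, 12.31 and 12.62 in monuron kidneys and 11.33, 11.79, 10.73 and 10.64 in control kidneys, 1.12 ± 0.25 higher (adjusted p = 0.0231), and its second probe set gave 1.06. Slco1a6, of which less is known, read 13.13, 13.00, 13.21 and 13.59 in monuron kidneys and 12.65, 12.83, 12.41 and 12.25 in control kidneys, 0.70 ± 0.15 higher (adjusted p = 0.0201). In all 3 genes control replicates 1 and 2 were the higher controls, and monuron replicates 3 and 4 the higher treated kidneys. The Slco1a3 call ended without monuron replicate 3, control replicate 3 or control replicate 4 (differences 0.95 to 1.34 over all removals, adjusted p up to 0.0769), and the Slco1a6 call without monuron replicate 3 or control replicate 3 (0.58 to 0.80, up to 0.0707).

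Among the Slc22a carriers, Slc22a25 read 11.87, 11.85, 12.06 and 12.03 in monuron kidneys and 11.59, 11.49, 11.18 and 11.11 in control kidneys, 0.61 ± 0.11 higher (adjusted p = 0.012). Slc22a2, which takes organic cations up from blood, read 12.26, 12.56, 12.91 and 13.48 in monuron kidneys and 11.97, 12.25, 11.80 and 11.92 in control kidneys. The groups only just separated, and the rise of 0.82 ± 0.23 had an adjusted p of 0.0489. Slc22a17, a receptor for lipocalin 2, read 7.46, 7.49, 7.55 and 7.18 in monuron kidneys and 6.61, 6.99, 6.84 and 7.12 in control kidneys, 0.53 ± 0.14 higher (adjusted p = 0.0384). Slc22a5, which recovers carnitine with sodium, read 12.47, 12.55, 12.60 and 12.50 in monuron kidneys and 12.43, 12.27, 12.28 and 12.11 in control kidneys, 0.26 ± 0.071 higher (adjusted p = 0.0473). Abcc6, an ABC protein linked to ATP release, read 5.82, 6.63, 6.09 and 6.22 in monuron kidneys and 5.39, 4.55, 5.62 and 4.40 in control kidneys, 1.20 ± 0.29 higher (adjusted p = 0.0329). The calls of Slc22a2, Slc22a17, Slc22a5 and Abcc6 sat near the threshold. Leaving out one array ended them in 6, 6, 7 and 5 of 8 cases, with adjusted p up to 0.134, 0.108, 0.126 and 0.0781, while the differences stayed at or above 0.59, 0.44, 0.21 and 1.00. The arrays concerned were monuron replicates 2 and 3 and all 4 controls for Slc22a2, replicates 1, 2 and 3 of both groups for Slc22a17, all 4 monuron arrays and control replicates 2, 3 and 4 for Slc22a5, and monuron replicates 2, 3 and 4 with control replicates 2 and 4 for Abcc6.

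The main blood-side organic anion carriers gave no call. Slc22a6 read 13.36, 13.54, 13.42 and 13.27 in monuron kidneys and 13.48, 13.36, 13.49 and 13.58 in control kidneys, a difference of -0.08 with a 95% interval of -0.24 to 0.08. Slc22a8 read 13.05, 13.24, 13.06 and 13.18 in monuron kidneys and 13.17, 12.99, 13.36 and 13.26 in control kidneys (-0.06, -0.25 to 0.13), and Slc22a12 read 12.96, 13.00, 13.29 and 13.34 in monuron kidneys and 13.39, 13.14, 13.06 and 13.06 in control kidneys (-0.02, -0.26 to 0.22). In these 3 genes the kidneys of both groups interleaved. Slc47a1 read 13.26, 13.27, 13.30 and 13.13 in monuron kidneys and 13.02, 12.98, 12.70 and 13.08 in control kidneys. Its groups did not overlap, but the difference of 0.30 ± 0.084 missed the threshold (adjusted p = 0.0534).

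**Figure D2:**
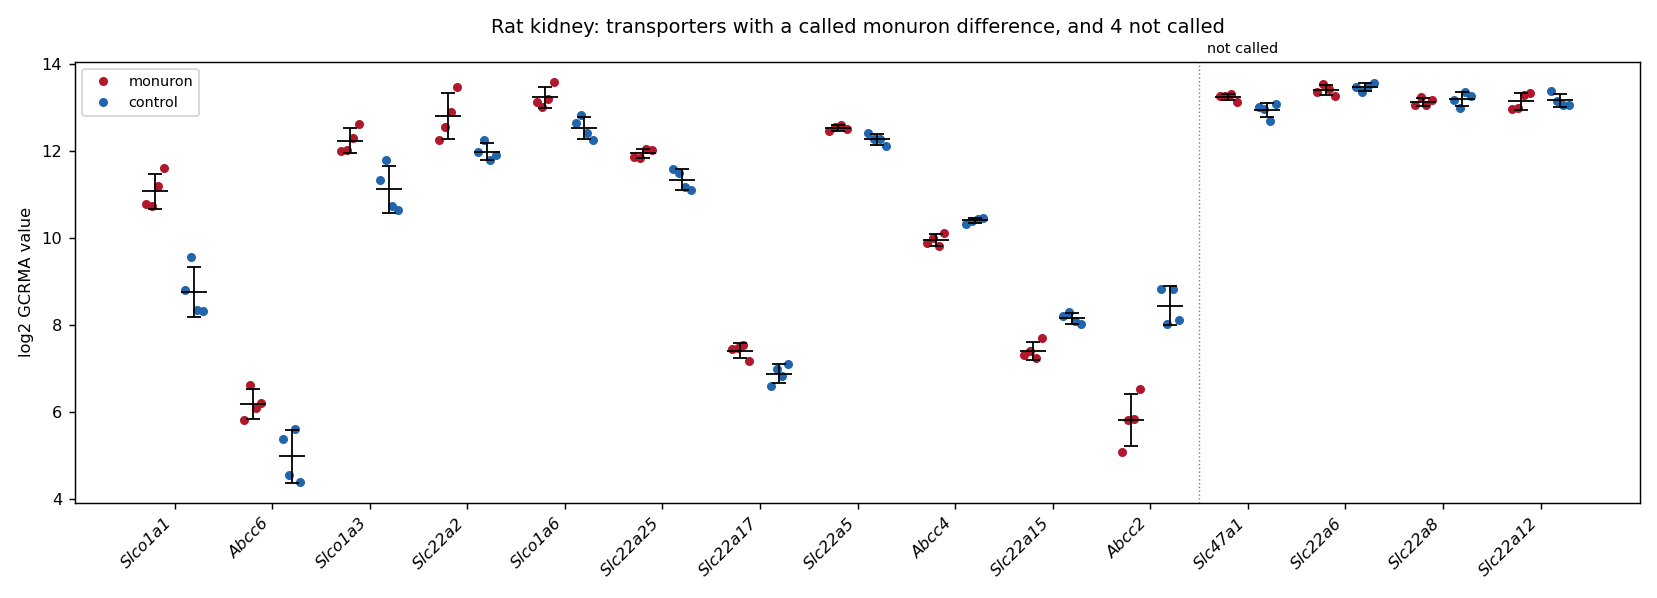
Log2 values of 11 called members and of Slc47a1, Slc22a6, Slc22a8 and Slc22a12 on each kidney array (y axis), monuron in red at left and control in blue at right within each panel; points are arrays, n = 4 each, and bars are means ± SD. Abcc2 drops to 5.09 to 6.54 in monuron kidneys, against 8.02 to 8.84 in control kidneys, while Slc22a6, Slc22a8 and Slc22a12 overlap between groups.

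The efflux pumps Abcg2 and Abcb1a overlapped between groups. Abcg2 read 11.44, 11.59, 11.75 and 11.93 in monuron kidneys and 11.65, 11.54, 11.28 and 11.02 in control kidneys (0.31, adjusted p = 0.2), and Abcb1a read 7.12, 6.76, 6.88 and 8.10 in monuron kidneys and 6.81, 6.89, 7.07 and 6.68 in control kidneys (0.35, 0.404). Abcc1, an exporter of glutathione conjugates, read 7.23, 7.01, 7.15 and 7.52 in monuron kidneys and 6.54, 7.17, 6.88 and 7.74 in control kidneys (0.15, 0.711). Neither these nor the related pump Abcc3, with 5.74, 5.59, 5.77 and 5.90 in monuron kidneys and 5.65, 5.97, 6.06 and 6.04 in control kidneys (-0.18, 0.406), showed a separation of the groups. Slc22a7 read 5.77, 5.74, 6.15 and 7.03 in monuron kidneys and 5.71, 6.04, 4.97 and 4.75 in control kidneys (0.81, 0.164). Slco2b1 read 2.64, 4.39, 3.63 and 3.36 in monuron kidneys and 4.52, 5.39, 3.86 and 3.98 in control kidneys (-0.93, 0.17), with values close to the array median. Abcb4 read 3.60, 4.00, 4.24 and 4.01 in monuron kidneys and 4.01, 4.01, 3.91 and 3.86 in control kidneys (0.02, 0.964). For Slco4a1 the control kidneys alone ran between 2.29 and 8.42, and its difference of -1.67 had an SE of 1.27. The other 13 uncalled members ranged in difference between -0.20 (Abcb8) and 0.90 (Slc22a13). The 15 untested members were Abcc8, whose dim values come with the organ comparison, and 14 that were detected on 0 kidney arrays, among them Abcb11, Abcg5, Abcg8, Slco1a4, Slco1b2 and Abcc5.

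Of 17 tested carriers of organic anions outside these families, Slc10a1, the sodium-dependent bile acid carrier, rose by 2.26 (adjusted p = 0.00265) and none fell. Control kidney minus control liver was -11.67 for Slc10a1. Whether it was detected on control kidneys, or entered the fit only through monuron kidneys, was not examined, so 2.26 is not read as a measured change. None of 10 tested transcriptional regulators of transporters and none of 13 partner genes (scaffolds and ion-gradient proteins) was called. Markers of cell types moved in places: 2 of 9 tested proximal tubule markers rose, the endocytic receptors Cubn (1.01, adjusted p = 0.000252) and Lrp2 (0.63, 0.00374), and the mean of the 10-gene list lay at 12.71 to 12.81 in monuron kidneys and 12.44 to 12.53 in control kidneys. Distal nephron markers gave 0 calls of 9 (list means 11.36 to 11.75 in monuron kidneys, 11.31 to 11.94 in control kidneys). Of the 2 immune markers tested, Ptprc rose by 0.46 (0.0409), and 5 of the 8 on the array were detected on 0 kidney arrays. Of 5 tested hepatocyte markers, Cyp2e1 fell (-0.88, 0.00609), with list means of 4.80 to 6.64 in monuron kidneys and 4.62 to 5.93 in control kidneys and with Apoa1 and Tat detected on 0 kidney arrays. Glomerular (4 tested), cholangiocyte (4), stromal (5) and endothelial (4) markers gave no call. The part of these marker shifts in the transporter differences was not tested.

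In monuron livers 3 members were higher and 3 lower of 33 tested (9.09% each, against 1.1% higher and 2.02% lower of all 9361 genes tested). Higher were Slc22a8, Slco1a1 and Abcb11. Lower were Slc22a5, Abcb6 and Slc22a18. The median difference was 0.0021 over members and -0.071 over all genes. By family these were 1 higher and 1 lower of 6 Abcb genes, 1 higher and 2 lower of 10 Slc22a genes and 1 higher of 7 Slco genes, with no call among 6 Abcc and 4 Abcg genes.

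Slc22a8, which takes up organic anions, read 11.82, 11.90, 12.01 and 12.14 on the monuron livers, against 11.47, 11.38, 11.11 and 11.44 on the control livers. The rise was 0.62 ± 0.10 (adjusted p = 0.0228), and the second probe set gave 0.81. Slco1a1 read 11.89, 11.71, 11.78 and 11.83 in monuron livers and 11.15, 11.33, 11.49 and 11.37 in control livers, 0.47 ± 0.084 higher (adjusted p = 0.0285). Abcb11, the bile salt pump, read 13.09, 12.94, 13.17 and 13.35 in monuron livers and 12.50, 12.69, 12.81 and 12.63 in control livers, 0.48 ± 0.098 higher (adjusted p = 0.0404). No monuron liver overlapped a control liver in any of these 3 genes.

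Slc22a5 read 6.27, 6.60, 6.03 and 7.68 on the monuron livers, against 8.04, 8.03, 7.88 and 8.24 on the control livers. Monuron replicate 4 lay nearer the controls than the other monuron livers did, and the difference was -1.40 ± 0.32 (2.64-fold lower; adjusted p = 0.0488). Abcb6, a porphyrin-linked ABC protein, read 8.72, 8.85, 8.82 and 8.46 in monuron livers and 9.60, 9.21, 9.32 and 9.41 in control livers, a difference of -0.67 ± 0.12 (adjusted p = 0.0285). Slc22a18, an organic cation carrier-like protein, read 12.67, 12.98, 13.05 and 12.65 in monuron livers and 13.30, 13.22, 13.27 and 13.35 in control livers, a difference of -0.44 ± 0.096 (adjusted p = 0.0463). All 6 liver calls rest on single arrays in the sense that leaving one out can end them. Those of Slc22a8, Abcb11, Slco1a1 and Abcb6 ended without monuron replicates 1 or 3 or control replicates 1, 2 or 4 (adjusted p up to 0.0676, 0.118, 0.086 and 0.0949). That of Slc22a5 ended without any array but monuron replicate 4 (-1.75 to -1.20, up to 0.137), and that of Slc22a18 without any of the 8 (-0.51 to -0.38, up to 0.129).

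**Figure D3:**
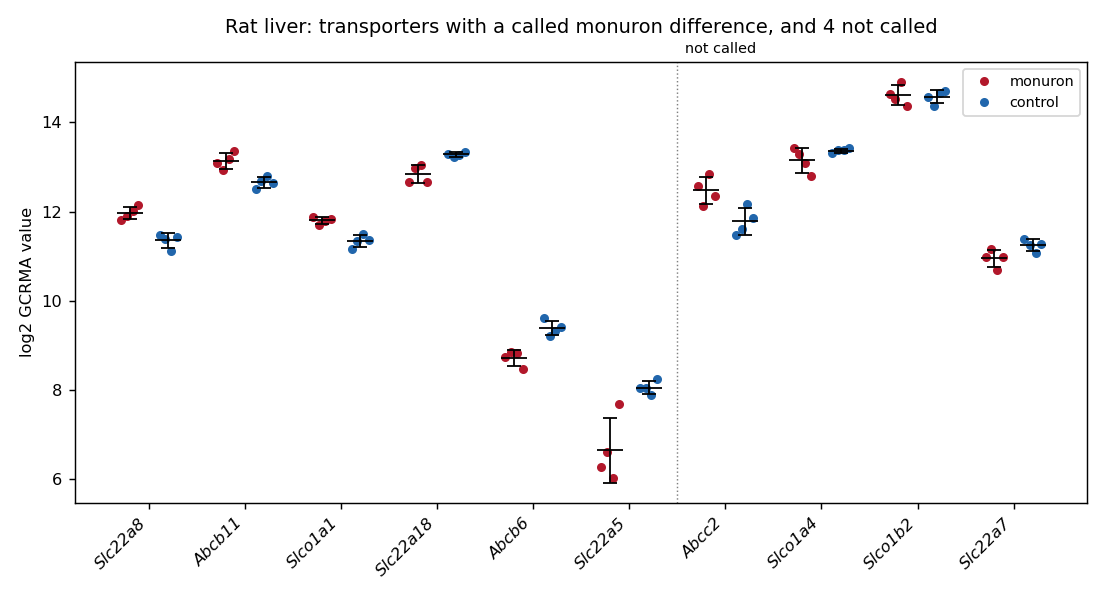
Log2 values of the 6 called members and of Abcc2, Slco1a4, Slco1b2 and Slc22a7 on each liver array (y axis), monuron in red at left and control in blue at right within each panel; points are arrays, n = 4 each, and bars are means ± SD. Slc22a5 lies at 6.03 to 7.68 in monuron livers, against 7.88 to 8.24 in control livers, and Slco1b2 overlaps between groups.

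Most canonical hepatocyte carriers gave no call. Slco1b2 read 14.64, 14.53, 14.91 and 14.36 in monuron livers and 14.58, 14.38, 14.65 and 14.70 in control livers (0.03, 95% interval -0.23 to 0.29). Slco1a4, which carries digoxin in rat, read 13.43, 13.28, 13.10 and 12.79 in monuron livers and 13.30, 13.38, 13.38 and 13.42 in control livers (-0.22, -0.49 to 0.06). Slc22a7 read 10.97, 11.16, 10.69 and 10.99 in monuron livers and 11.39, 11.25, 11.06 and 11.26 in control livers (-0.29, adjusted p = 0.158). These uptake genes overlapped between groups. Slco2b1 read 10.48, 10.73, 10.28 and 10.30 in monuron livers and 10.90, 10.63, 10.63 and 10.79 in control livers (-0.29, 0.169). Second probe sets gave 0.54 for Slco1b2, 0.09 for Slco1a4 and 0.22 for Slco2b1 in liver, each with overlapping groups. The probe sets of these genes thus differ in size or direction.

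Of the canalicular pumps beside Abcb11, Abcc2 read 12.57, 12.13, 12.84 and 12.35 in monuron livers and 11.47, 11.60, 12.17 and 11.86 in control livers. The difference of 0.70 ± 0.18 missed the threshold (adjusted p = 0.0708) and passed it without control replicate 3 (0.83, adjusted p = 0.0361). Abcb4 read 10.03, 9.87, 10.69 and 10.47 in monuron livers and 9.98, 10.19, 10.58 and 10.04 in control livers (0.07, 0.876). The sterol pump subunits overlapped too: Abcg5 read 7.79, 8.15, 7.75 and 7.80 in monuron livers and 7.999, 7.91, 7.78 and 8.49 in control livers (-0.17, 0.574), and Abcg8 read 3.16, 5.06, 3.91 and 4.63 in monuron livers and 3.48, 3.87, 3.95 and 4.93 in control livers (0.13, 0.884). Abcg2 read 7.13, 6.91, 7.02 and 6.13 in monuron livers and 6.85, 6.92, 6.62 and 5.54 in control livers (0.31, 0.607), and Abcb1a read 7.33, 7.07, 7.96 and 7.77 in monuron livers and 7.63, 7.87, 7.62 and 8.30 in control livers (-0.32, 0.425).

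Abcc3 and Abcc4, pumps of the blood side that move conjugates out of the hepatocyte, gave no call, and neither did Abcc6. Abcc3 read 4.39, 2.93, 4.34 and 3.74 in monuron livers and 4.24, 4.05, 5.04 and 5.58 in control livers (-0.88, 0.233), and Abcc4 read 4.44, 5.47, 4.55 and 5.90 in monuron livers and 6.49, 6.29, 5.02 and 6.43 in control livers (-0.97, 0.197). Abcc6 read 10.72, 10.88, 10.35 and 10.54 in monuron livers and 10.89, 10.78, 10.64 and 11.04 in control livers (-0.21, 0.34). The groups overlapped in all 3. Abcb8 (-0.49, 0.108) and the ergothioneine carrier Slc22a4 (0.49, 0.143) did not overlap between groups, yet neither passed the threshold. The other 12 uncalled members lay between -0.74 (Slc22a15) and 0.76 (Slc22a25). Among the 18 untested members, 15 were detected on 0 liver arrays and Abcc1, Slc22a12 and Slco1a6 on too few.

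In the liver, 3 of 11 tested carriers outside these families fell: the phosphate and urate carriers Slc17a3 (-0.71, adjusted p = 0.00868) and Slc17a1 (-0.58, 0.0285) and the sulphate carrier Slc26a1 (-0.49, 0.0317). Of 15 tested regulators, the nuclear receptors Nr1i3 (the drug sensor CAR) fell by 1.46 (0.0166) and Nr5a2 by 0.47 (0.0307), and the glucocorticoid receptor Nr3c1 rose by 0.63 (0.0228). None of 12 partner genes was called. Hepatocyte markers gave 0 calls of 9 (list means 15.06 to 15.18 in monuron livers, 14.98 to 15.20 in control livers). The immune list lay at 6.95 to 7.25 in monuron livers and 6.68 to 6.89 in control livers, without overlap, with 0 of 6 tested markers called. Of 6 tested proximal tubule markers the water channel Aqp1 rose by 2.10 (0.0228), and tested cholangiocyte (2), stromal (5) and endothelial (5) markers gave no call. The part of these shifts in the transporter values was not tested.

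The monuron difference itself differed between the organs for 8 members in a joint fit of all 16 arrays. The difference was higher in liver for 2 of 42 members (4.76%, against 1.09% of all genes) and lower in liver for 6 (14.3%, against 1.59%). Abcc2 had the widest gap, with 0.70 in liver and -2.63 in kidney, an interaction of 3.32 ± 0.38 (liver minus kidney, adjusted p = 0.000237). For Slco1a1 the direction was shared and the rise was smaller in liver (-1.85 ± 0.32, adjusted p = 0.00539). Slc22a5 was lower in monuron liver and higher in monuron kidney (-1.66 ± 0.34, 0.0143), and Slc22a8 was higher in monuron liver with no call in kidney (0.68 ± 0.13, 0.0125). These 4 differences passed the threshold in all 24 alternatives run. Abcb6 (-0.73, 0.0146) passed in 23 of them, the exception being the fit with the replicate number as a block (adjusted p = 0.0503). Abcc6 (-1.42, 0.0365), Slc22a18 (-0.49, 0.0416) and Abcc8 (-1.52, 0.0455) passed less often, in 11, 11 and 8 of 24 alternatives.

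Leaving out single arrays ended each of those 3 calls in 11 of 16 cases, with differences of -1.63 to -1.22, -0.56 to -0.43 and -1.71 to -1.38. Abcc8 read 4.57, 3.73, 4.40 and 4.53 in monuron kidneys and 2.60, 2.76, 2.25 and 2.89 in control kidneys, and 4.59, 5.50, 5.37 and 4.57 in monuron livers and 4.32, 5.25, 4.62 and 5.19 in control livers. The control kidneys lay below the array median, and with such values set to that median the interaction was -0.28 (adjusted p = 0.741). Slco1a3, raised in kidney and dim in liver, gave -0.9998 with no call (adjusted p = 0.0835).

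**Figure D4:**
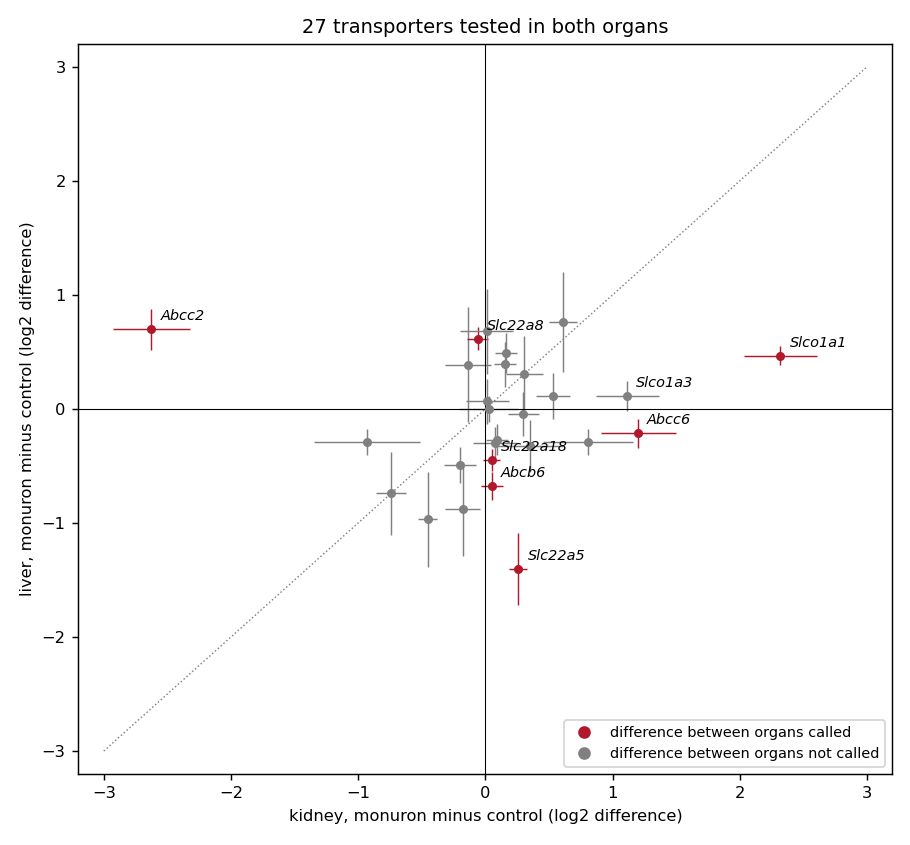
Monuron minus control log2 difference in kidney (x axis) and liver (y axis) for the 27 members tested in both organs; points are estimates, bars ± SE, red marks the 7 whose difference itself differed between organs and the dotted line marks equal differences. Abcc2 lies at the far left and above 0, Slco1a1 at the far right with a small liver value, and most grey points cluster near 0 in both organs.

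NRK-52E cells held few of these transporters. On all DMSO arrays 12 of 51 members were detected, and 11 of the 12 were also detected on all control kidneys, Abcc5 being the exception. Of the members on all control kidneys, 18 were detected on 0 of 18 cell arrays, among them Slc22a2, Slc22a6, Slc22a8, Slc22a12, Slc47a1, Abcc2, Slco1a1, Slco1a3 and Slco1a6. Although the line is labelled as proximal tubule, 7 of 10 markers of that cell type (Lrp2, Cubn, Slc34a1, Slc5a2, Slc5a1, Fbp1 and Miox) were also detected on 0 cell arrays. The filter left 15 members for testing in the cells, and Abcc2 and Slco1a1, the leading changes in kidney, were not among them.

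Few members were called at 6 and 24 h, and few of all genes tested. At 6 h, 2 of 15 rose (13.3%, against 3.3% of all 9042 genes tested) and 0 fell in limma (against 3.02%), with 3 members at an unadjusted p under 0.05. At 24 h, 1 rose (6.67%, against 6.43%) and 0 fell in limma (against 7.14%), with 2 at an unadjusted p under 0.05. The counts over all genes at 6 h were 298 higher and 273 lower, or 175 and 389 with arrays centred on their medians, and 484 and 546 with the replicate number as a block. At 6 h Slc22a17 read 5.92, 5.89 and 5.70 in monuron cells and 4.93, 5.00 and 4.73 in DMSO cells, 0.95 ± 0.21 higher (adjusted p = 0.015). Abcg3l1, a rodent relative of Abcg2, read 7.24, 7.17 and 7.10 in monuron cells and 6.03, 4.90 and 6.12 in DMSO cells, 1.49 ± 0.35 higher (adjusted p = 0.022). The groups were separate in both genes. The Slc22a17 call ended without monuron replicate 2 or DMSO replicate 1 at 6 h (0.87 to 1.02, adjusted p up to 0.0726), and that of Abcg3l1 without any monuron replicate or DMSO replicate 2 (1.10 to 1.71, up to 0.089).

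At 24 h Slc22a18 read 4.96, 4.61 and 3.85 in monuron cells and 3.08, 3.30 and 2.73 in DMSO cells, 1.44 ± 0.38 higher (adjusted p = 0.0209). It was detected on 2 monuron arrays at 24 h, 1 monuron array at 72 h and no DMSO array, so it entered the fit only through the groups where it is high. With dim values set to the array median the difference was 0.43 (adjusted p = 0.0692). The call also ended without monuron replicates 1 or 2 or DMSO replicates 1 or 3 at 24 h (1.20 to 1.75).

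By 72 h, 4 members were higher in monuron cells (26.7%, against 30.7% of all genes; 3 with Abcb1a left aside, for the reason given with its values) and 4 were lower (26.7%, against 30.9%), shares near those of all genes. The median difference was 0.26 over members and 0.0067 over all genes. Abcb1a, which encodes a drug-efflux P-glycoprotein, read 4.09, 5.26 and 5.78 in monuron cells and 2.67, 2.68 and 3.53 in DMSO cells. Its probe set was detected on the 3 monuron arrays at 72 h and on no other cell array, so it entered the fit only through the group where it is high, and its call supports nothing beyond that. The fitted difference was 2.08 ± 0.32 (adjusted p = 4.41e-05), or 0.91 (adjusted p = 0.00736) with values below the array median set to it. A second probe set gave 0.67 but was detected on 0 of the 6 arrays at 72 h, so that figure is not a measured change. Abcb6 read 8.99, 8.86 and 9.23 in monuron cells and 7.35, 7.35 and 8.54 in DMSO cells, 1.28 ± 0.23 higher (adjusted p = 0.000181). The prostaglandin-linked carrier Slco3a1 read 9.44, 9.43 and 9.33 in monuron cells and 8.56, 8.84 and 9.22 in DMSO cells, 0.53 ± 0.13 higher (adjusted p = 0.00195).

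Abcc4 read 8.83, 9.13 and 8.90 in monuron cells and 7.41, 7.53 and 9.28 in DMSO cells at 72 h. DMSO replicate 3 exceeded every monuron array, and the rise was 0.88 ± 0.32 (adjusted p = 0.026). Without both arrays of replicate 3 it was 1.51. That removal was chosen after seeing the data, so it lends the rise no support. The call ended without monuron replicates 2 or 3 or DMSO replicates 1 or 2 at 72 h (0.55 to 1.48, adjusted p up to 0.147). DMSO replicate 3 was the highest of its group in Abcb1a, Abcb6, Slco3a1, Abcc4 and Abcg2.

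Slc22a17 was lower at 72 h, at 7.17, 7.58 and 6.83 in monuron cells and 8.76, 8.37 and 7.88 in DMSO cells (-1.14 ± 0.21, adjusted p = 0.000198), the reverse of its 6 h difference. Abcc5, a cyclic nucleotide exporter, read 5.80, 6.55 and 5.14 in monuron cells and 7.98, 6.40 and 6.59 in DMSO cells (-1.16 ± 0.44, 0.0317). Its groups overlapped, its second probe set gave -0.17, and the call ended without monuron replicates 1 or 3 or DMSO replicate 1 at 72 h (-1.52 to -0.67). Abcb8 and Abcb10 fell as well, while Abcb6 of the same family rose. Abcb8 read 4.01, 5.32 and 4.68 in monuron cells and 5.34, 5.52 and 5.54 in DMSO cells (-0.80 ± 0.24, 0.00845), with no call without monuron replicate 1 (-0.47, 0.0515). Abcb10 read 8.94, 8.95 and 8.79 in monuron cells and 9.38, 9.09 and 9.31 in DMSO cells (-0.37 ± 0.097, 0.00359), and its second probe set gave -0.14 with overlapping groups.

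Abcg2, the pump of urate and drugs, lay lower at 72 h than at 24 h in both groups, a step over time that was not tested. At 24 h it read 9.92, 9.90 and 9.81 in monuron cells and 9.85, 9.87 and 9.88 in DMSO cells. By 72 h it read 7.79, 6.73 and 7.48 in monuron cells and 6.09, 7.21 and 8.84 in DMSO cells, with a wide scatter and no call (-0.05, 95% interval -0.97 to 0.87). Abcc1 read 9.52, 9.49 and 9.42 in monuron cells and 10.15, 9.92 and 9.55 in DMSO cells (-0.39, adjusted p = 0.0502, or 0.0236 with the replicate number as a block). Slc22a18 at 72 h gave 0.71 (0.114, or 0.0315 with the block), but -0.064 (0.736, no block) with values below the array median set to it. Abcc3 read 7.62, 7.88 and 7.95 in monuron cells and 7.92, 7.36 and 7.41 in DMSO cells (0.26, 0.207), and Slc22a5 read 8.94, 9.00 and 9.01 in monuron cells and 8.94, 8.83 and 9.03 in DMSO cells (0.05, 0.632). Slc22a15 (0.30) and Abcg3l1 (0.59) were also not called.

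**Figure D5:**
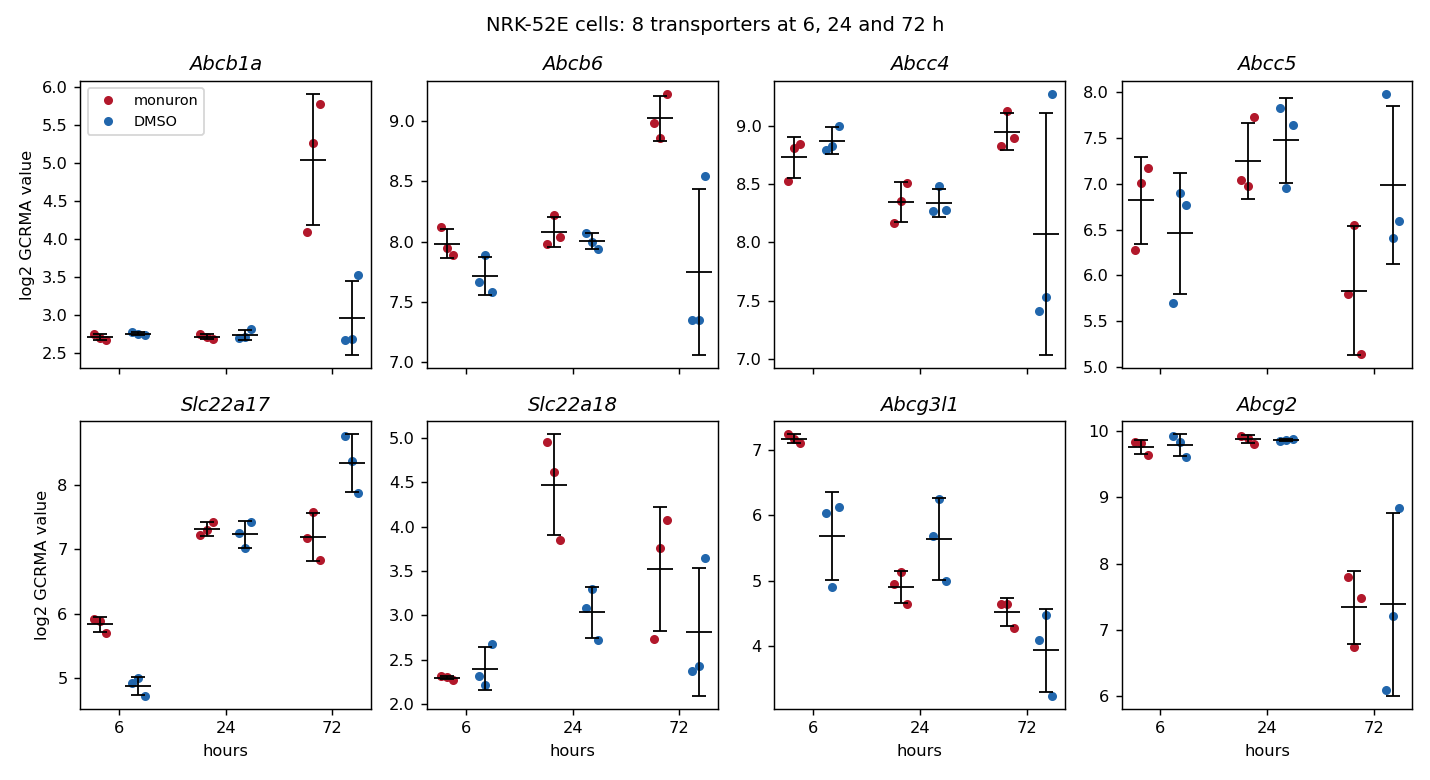
Log2 values of 8 members in NRK-52E cells (y axis) at 6, 24 and 72 h (x axis), monuron in red at left and DMSO in blue at right at each time. Points are arrays, n = 3 per group, and bars are means ± SD. Abcb1a and Abcb6 separate only at 72 h, Slc22a17 is higher in monuron cells at 6 h and lower at 72 h, and Abcg2 falls in both groups at 72 h.

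The monuron difference changed between 24 and 72 h for 6 members. It was higher at 72 h for 4 of 15 (26.7%, against 18.3% of all genes): Abcb1a (2.11 ± 0.45, adjusted p = 0.0021), Abcg3l1 (1.32 ± 0.50, 0.0476), Abcb6 (1.20 ± 0.33, 0.00896) and Slco3a1 (0.59 ± 0.18, 0.0172). It was lower for 2 (13.3%, against 19.6%): Slc22a17 (-1.23 ± 0.29, 0.00428) and Abcc1 (-0.62 ± 0.24, 0.0492). All 24 h values of Abcb1a were below the array median, so its 2.11 is a fitted value and not a measured change, and with dim values limited it was 0.91 with no call (adjusted p = 0.0675). The calls of Abcg3l1 and Abcc1 ended in 14 of 18 cases with one array left out (0.97 to 1.64 and -0.78 to -0.46). With dim values limited the Abcg3l1 change was 1.01 with no call (adjusted p = 0.0737). Its 24 h difference was -0.73, also not called.

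At 72 h, when 30.7% of all genes were higher and 30.9% lower in the cells, several genes of the context lists were called. The lists are too short for their counts to be set against those shares. Of 10 tested regulators, Foxa2 (-1.26, adjusted p = 5.74e-06) and Nr3c1 (-0.74, 1.13e-05) fell and Cebpa (0.96, 0.0172) and Stat5b (0.61, 0.0242) rose. Of 6 partner genes, 1 rose, the membrane linker Rdx (0.23), and 3 fell, its relative Ezr (-0.77), the sodium pump subunit Atp1b1 (-0.49) and the carrier chaperone Bsg (-0.17). At 24 h, when 6.43% of all genes were higher, the oxidative stress factor Nfe2l2 rose by 0.34 (0.00252), 1 of 10 tested regulators. The nucleoside carrier Slc29a1 rose by 1.66 (0.00319), 1 of 2 tested carriers outside these families. At 6 h, when 3.3% of all genes were higher, Onecut1 rose by 0.90 (0.0385), 1 of 10 tested regulators. Markers of other cell types shifted with 72 h exposure too. Of 4 tested stromal markers, Acta2 (1.63) and Des (0.91) rose and Col1a1 (-1.14) and Col3a1 (-1.11) fell. The 2 tested glomerular markers Wt1 (-1.50) and Synpo (-1.11) fell, as did Tek (-1.95), the 1 endothelial marker tested. The macrophage-associated Cd68, the 1 immune marker tested, rose by 2.30. The part of these shifts in the transporter differences was not tested.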

How the data were processed

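The deposited values are on a log2 scale and were made by the authors with GCRMA, per the submitters' processing notes, which name no version. The method estimates background from probe sequence and forces arrays toward a common distribution, so small shifts shared by all genes are partly removed and values of dim probe sets are compressed. Kidney, liver and cell arrays nevertheless kept different medians. The table held 31099 probe sets, of which 57 controls were left out, 20826 had 1 gene symbol, 436 had several and 9780 had none. Members were taken by symbol from the platform annotation. Probe sets shared by several genes (1 for Abcb1a and Abcb1b, 1 for Abcg3l4 and Abcg3l2) were not used. Slco1a2, Slco4c1 and Abcb1b had no probe set of their own named here. The Abcb1a and Abcb1b set gave -0.75 in kidney with overlapping groups, against 0.35 for Abcb1a. In cells the Abcg3l4 and Abcg3l2 set gave 0.41 at 24 h and 0.56 at 72 h without overlap. Its groups overlapped at 6 h and in both organs.

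The probe set with the highest mean stood for a gene. A gene entered a fit when its value lay above the array's median on 3 arrays (cells) or 4 (organs), the size of 1 group, which left 9542 genes in kidney, 9361 in liver, 9042 in cells and 10114 in the joint organ fit. Tests were limma 3.58.1 (R 4.3.3) with lmFit and eBayes with trend, two-sided, adjusted by Benjamini-Hochberg over all genes of a fit. Adjusted p-values in the text come from these fits, and the 8 comparisons were adjusted separately. Differences are fitted group means, the first group minus the second. In simulated data with 200 changed genes, 86% of changes of size 1 (log2) were recovered for kidney, 82% for liver and 90% for cells at 72 h, and 99%, 93% and 97% of changes of size 2. The number of arrays limits the precision. No 2 arrays held identical values.

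Same-numbered monuron and DMSO arrays deviated together at 6 h (0.491, 0.197 and 0.29) and 72 h (0.205, 0.167 and 0.317), so the numbers may pair the arrays there. The fits reported have no block. In the cells at 6 h and 72 h, the blocked value stands beside a result where it changes the call. Same-numbered arrays did not deviate together at 24 h, in kidney (-0.216 to 0.018) or in liver (-0.164 to 0.045). In kidney the block ended the limma calls of Slc22a25 (adjusted p = 0.0563), Slco1a3 (0.0791), Slco1a6 (0.0822), Abcc6, Slc22a2, Slc22a17 and Slc22a5. In liver it ended every call.

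The members, the panel printed by array and the context lists were chosen with earlier results of these data known. Values by array are given for a fixed panel of well-studied transporters and for the called members with the largest differences in each direction, up to 6. Alternatives covered the filter, centring, quantile normalization, the mean of all probe sets, eBayes without trend, values below the array median set to it, the replicate block and each array left out. Leaving out both 72 h arrays of replicate 3, or all 72 h arrays, was chosen after seeing the data. Positions and promoter sequences are from RefSeq (GRCr8), which held windows for 43 of the 51 members.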

Additional observations from a re-analysis of the deposited data

Results flagged for a closer look

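Single arrays stood apart from the other 3 of their group in 5 of 138 groups of 4 examined (3.62%, where chance gives about 1 in 20). They were Slc22a13 in kidney control replicate 2 (7.14), Abcc4 in liver control replicate 3 (5.02), Abcg5 in liver monuron replicate 2 (8.15), Slc22a21 in liver control replicate 4 (3.71) and Slco1a3 in liver control replicate 4 (3.48), as log2 values.

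The monuron difference itself differed between organs, liver minus kidney, for Abcc2 (3.32), Slc22a8 (0.68), Slc22a18 (-0.49), Abcb6 (-0.73), Abcc6 (-1.42), Abcc8 (-1.52), Slc22a5 (-1.66) and Slco1a1 (-1.85). In the cells it differed between 72 h and 24 h, as 72 h minus 24 h, for Abcb1a (2.11), Abcg3l1 (1.32), Abcb6 (1.20), Slco3a1 (0.59), Abcc1 (-0.62) and Slc22a17 (-1.23).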

How the results depend on the processing

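Control organ counts stayed within 20 to 22 members higher and 18 to 26 lower over all alternatives, and Abcc2, Abcc4, Slc22a15 and Slco1a1 were called in kidney in all 16. Without the filter on dim probe sets, 5 members were higher in kidney, 1 was higher and 0 lower in liver, 3 had an organ difference lower in liver, 11 were higher in cells at 72 h and 1 had a lower 72 h than 24 h difference. The last count was also 1 with arrays centred, with quantile normalization, with the mean of all probe sets, without the trend and with dim values limited, where the count of higher ones was 2. Without the trend, liver gave 1 higher and 1 lower and cells at 24 h gave 2 higher. The mean of all probe sets gave 1 lower in liver and 2 higher at 24 h. At 24 h the count was 0 under the stricter filter, 2 without both 72 h arrays of replicate 3 and 0 without all 72 h arrays, both chosen after seeing the data. With the replicate number as a block, 1 member was higher in kidney, 0 were higher and 0 lower in liver and 3 had an organ difference lower in liver, where the calls of Abcb6, Abcc6 and Abcc8 ended. Treatment and control arrays of an organ share only a number. Same-numbered kidney and liver arrays correlated at 0.021 to 0.158, above every other number for 7 of 8 pairs, a hint from the data that the labels do not give. In the cells at 6 h and 72 h, the block added Abcc1 and Slc22a18 at 72 h and ended no call. The Slc22a18 difference at 72 h was -0.064 with dim values limited. With one array left out, counts of higher and lower members ran from 2 to 7 and 3 to 3 in kidney (2 without monuron replicate 3), 0 to 4 and 0 to 2 in liver, 0 to 2 higher at 6 h, 0 to 1 higher at 24 h, 2 to 6 and 2 to 5 at 72 h, 2 to 4 and 1 to 2 for the change between 24 and 72 h, and 2 to 2 and 3 to 6 for the organ difference. Abcg2 at 72 h ran from -0.69 without DMSO replicate 1 to 0.68 (adjusted p = 0.0339) without DMSO replicate 3. The cause of these changes was not tested. Values near or below the array median limit what dim probe sets show.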
